A study of Homo sapiens with 4 samples.

Results

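The metallothioneins described here are 6 of the 33538 genes counted in HCEC 1CT cells by single-cell RNA sequencing (scRNA-seq), namely MT1E, MT1F, MT1G, MT1M, MT1X and MT2A. The members were chosen by symbol with earlier results of these data known, namely the measured MT1F levels of APC-depleted and control cells on both days. Their levels and ratios below are therefore descriptions. HCEC 1CT is a line of human colon epithelium that TERT and CDK4 made immortal. Its cells received either shAPC, a short hairpin RNA that targets APC, or shScr, its scrambled control, and were collected 3 or 7 days after transduction, so that there are 4 libraries and 1 library per group. All groups shared puromycin selection and a medium with EGF, hydrocortisone, insulin, sodium selenite, transferrin and fetal bovine serum. The sources differ on the virus, which is retroviral in the labels and lentiviral in the methods. Only 1 shRNA against APC is named, and no replicate culture is available for any group.

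Metallothioneins are small cysteine-rich proteins that bind zinc and copper and buffer their supply, and they also bind toxic metals such as cadmium. Their genes are switched on when zinc-bound MTF1, the metal-sensing transcription factor, binds metal response elements near their start sites. Glucocorticoids and oxidative stress are also known inducers of several members. The intestinal epithelium is a site of metal uptake, where metallothioneins hold zinc and copper inside the cell. APC is a scaffold of the complex that marks beta-catenin for degradation, and its loss is an early event in most colorectal tumours.

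After barcodes with fewer than 200 genes, fewer than 500 UMIs (unique molecular identifiers, each standing for 1 captured RNA molecule) or 5% or more mitochondrial UMIs were set aside, 788 to 2600 cells and 28451455 to 39797418 UMIs remained per library. Depth per cell differed widely, with a median of 1330 UMIs in shScr day 7 against 21029.5 to 49685.5 in the other libraries. Reads of the shScr libraries were counted with Cell Ranger 3.0.2 and those of the shAPC libraries with 3.0.0, so software version and shRNA cannot be told apart. Libraries shared 2 to 25 barcodes pairwise. APC itself held 639 UMIs in shScr day 3, 193 in shAPC day 3, 597 in shScr day 7 and 188 in shAPC day 7, which gives log2 ratios of -1.54 and -1.53. The cells are labelled as epithelial progenitors, yet CDH1, the epithelial cadherin, had no UMI in 3 of the 4 libraries, and the intestinal genes CDX2 and MUC2 had none in all 4. Of the 8 epithelial markers, 4 in each shScr library and 5 in each shAPC library had more than 3 UMIs. All 8 summed to 25.0 to 49.4 CPM (UMIs scaled to a library total of 1000000) and the 6 intestinal ones to 0.0961 to 0.176 CPM. The 6 mesenchymal markers, VIM and FN1 among them, summed to 8779 to 11339.5 CPM. Blood markers stayed between 0.246 and 1.32 CPM and endothelial ones between 0.0320 and 0.126 CPM.

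The members lie within 75.6 kb on chromosome 16 (GRCh38, positions 56608584 to 56684196, GENCODE 44), from MT2A at one end to MT1X at the other. MT1G is on the minus strand and the others are on the plus strand. MT1E starts 16.9 kb from the MT2A start, MT1M 24.1 kb, MT1F 49.1 kb, MT1G 59.5 kb and MT1X 73.9 kb. RefSeq promoter sequences (GRCh38.p14) were at hand for 2 of the 6 members, MT2A and MT1X. They are shown because MT2A was the most abundant gene of all and MT1X was the only one of the 3 abundant members with a higher level in shAPC on both days when scaled by total UMIs. Each line gives the 250 bases before the annotated start, chr16:56608334-56608583 for MT2A and chr16:56682220-56682469 for MT1X, plus strand, 5′ to 3′. Capitals mark matches to the metal response element core, TGCACNC or TGCGCNC, on either strand.
MT2A: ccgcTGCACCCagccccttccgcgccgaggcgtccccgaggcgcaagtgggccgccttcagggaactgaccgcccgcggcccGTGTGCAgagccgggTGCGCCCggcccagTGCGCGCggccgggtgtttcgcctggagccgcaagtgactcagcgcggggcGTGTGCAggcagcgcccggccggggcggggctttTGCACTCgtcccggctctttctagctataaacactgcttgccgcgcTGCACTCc
MT1X: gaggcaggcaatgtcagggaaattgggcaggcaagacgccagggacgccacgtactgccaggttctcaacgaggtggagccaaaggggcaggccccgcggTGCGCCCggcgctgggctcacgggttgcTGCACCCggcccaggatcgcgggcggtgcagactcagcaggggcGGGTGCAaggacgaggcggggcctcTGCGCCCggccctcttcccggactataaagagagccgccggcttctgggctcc
MT2A held 7 such matches and MT1X held 4, and no match overlapped another. Among 35116 RefSeq upstream stretches of the same length, 24.8% held at least 1 match and 11 (0.0313%) held 7 or more. Both held 1 TATAAA (10.7% of all stretches, both strands), which lies 29 bases before the start in MT2A and 30 in MT1X. Both also held 1 match to the antioxidant response element core TGACNNNGC (10.9% of all stretches). The TCF/LEF letters CTTTGAA and CTTTGAT, searched on both strands, were in neither window, and 5.94% of all stretches held one of them. These are letter matches only.

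Because the genes are near copies of one another, reads can be shared between them. Of all 50-base windows of each member's canonical transcript, 6.12% for MT1F, 10.3% for MT1E, 11.1% for MT2A, 14.6% for MT1M and 19.9% for MT1G also occur in transcripts of another gene. For MT1X the share was 51.0%, of which an overlapping gene model without a symbol (ENSG00000259827) held 117 of 355 windows. Near the 3′ end, where the reads fall, the share ran from 1.99% for MT1E to 30.7% for MT1X, with MT1F at 9.16%. Levels are therefore uncertain between members to the extent that such reads were dropped or split. The share was lowest for MT1F over the whole transcript, but for MT1E near the 3′ end.

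MT2A was the gene with the most UMIs in every library. Its level was 42335 CPM in shScr day 3, 36142 CPM in shAPC day 3, 37465 CPM in shScr day 7 and 32388 CPM in shAPC day 7, and every kept cell held at least 1 UMI. These are UMI counts from transcript ends, which do not scale with gene length. MT1E came next, with 8743 CPM in shScr day 3, 7854 CPM in shAPC day 3, 6797 CPM in shScr day 7 and 5670.5 CPM in shAPC day 7. On both days MT2A and MT1E were lower in shAPC than in shScr. MT1X stood at 723 CPM in shScr day 3, 920 CPM in shAPC day 3, 621 CPM in shScr day 7 and 1012 CPM in shAPC day 7, so that both shAPC libraries lay above both shScr libraries. The 6 members together took 5.19% of all UMIs in shScr day 3, 4.50% in shAPC day 3, 4.49% in shScr day 7 and 3.92% in shAPC day 7. MT2A and MT1E alone supplied nearly all of these.

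The other 3 members were far scarcer than MT2A. MT1F had 13.9 CPM (95% exact Poisson interval 12.7 to 15.1) in shScr day 3, 44.2 CPM (42.0 to 46.4) in shAPC day 3, 13.7 CPM (12.5 to 15.1) in shScr day 7 and 66.8 CPM (63.8 to 69.9) in shAPC day 7. The shScr libraries were close to each other, and both shAPC libraries lay well above them. MT1G had 42.2 CPM in shScr day 3, 44.5 CPM in shAPC day 3, 19.5 CPM in shScr day 7 and 39.5 CPM in shAPC day 7, with only shScr day 7 standing low. As 1 cell held 62.4% of the MT1G UMIs of shScr day 3, the levels were also computed without the cell with the most MT1G UMIs in each library, and were then 15.9, 26.1, 17.7 and 35.9 CPM in the same order, with both shScr libraries low. MT1M ran at 16.5 CPM in shScr day 3, 23.9 CPM in shAPC day 3, 16.3 CPM in shScr day 7 and 21.7 CPM in shAPC day 7, a narrower span with both shAPC libraries on top. In shScr day 3 the order from the highest was MT2A, MT1E, MT1X, MT1G, MT1M and MT1F. In shAPC day 7 MT1F lay above MT1G and MT1M, while in shAPC day 3 the Poisson intervals of MT1F and MT1G overlapped. All intervals cover counting error only, since the spread between cultures is unknown with 1 library per group. No test between groups was run, because the members were chosen on these contrasts and each combination of shRNA and day holds 1 library, and no p-value is given.

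**Figure D1:**
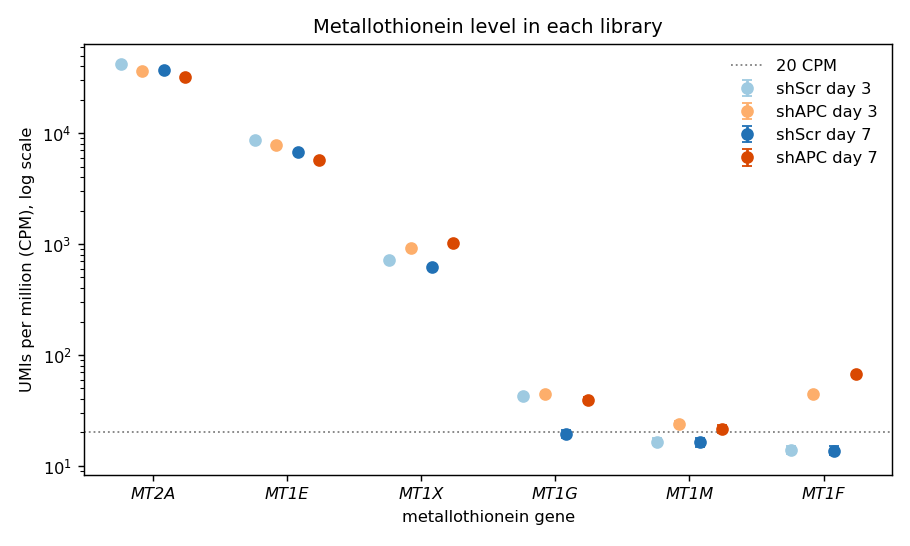
CPM of each metallothionein (y axis, log scale) in the 4 libraries, with exact Poisson 95% intervals that are mostly smaller than the points. The dotted line marks the minimum of 20 CPM. MT1F is near 14 CPM in both shScr libraries and at 44.2 and 66.8 CPM in the shAPC libraries.

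Set against shScr, MT1F was the member with the largest ratio on both days. Its log2 ratio of shAPC to shScr stood at 1.67 (95% exact conditional binomial interval 1.53 to 1.81) on day 3, and on day 7 at 2.28 (2.13 to 2.44), or 3.18-fold and 4.86-fold. On the log2(CPM + 1) scale, where a fold of 2 counts as a call, it was the 1 member of 6 called at each day. Of all 5175 genes with at least 20 CPM in a library, 3.86% were called higher, 0.425% lower and 4.29% either way at day 3. Of 4573 genes at day 7, the shares were 0.787% higher, 1.77% lower and 2.56% either way. Nothing follows from this count for the family, as the members were chosen with it known. By the same ratio MT1F ranked 72nd from the top at day 3 and 1st at day 7. MT1F and MT1M reached the minimum of 20 CPM only through the shAPC library on both days, and MT1G did so at day 7.

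MT1G lay just outside the call at day 7, with 0.98 on the log2(CPM + 1) scale, and was the member nearest to the threshold of 1. The only member inside, MT1F, was far past it at 2.20. Without the pseudocount the day 7 value was 1.02 (0.88 to 1.16), against 0.07 (-0.03 to 0.17) on day 3. MT1X followed with 0.35 (0.32 to 0.37) at day 3 and 0.70 (0.68 to 0.73) at day 7. MT1M differed by 0.53 (0.38 to 0.68) at day 3 and 0.41 (0.24 to 0.58) at day 7. MT2A and MT1E were lower in shAPC, by -0.23 and -0.15 at day 3 and by -0.21 and -0.26 at day 7. Summed over the 6 members the log2 ratio was -0.20 on both days. With totals as the scale, the higher MT1F count was thus shared in direction by MT1X and MT1M on both days and by MT1G at day 7, and not by MT2A or MT1E. For MT1X at day 3 this ended under TMM and DESeq2 factors (-0.033 and -0.016), and for MT1G at day 3 the ratio was 0.71 (0.57 to 0.86) without 1 cell in each library. The MT1M ratio at day 3 stayed above 0 under all 9 alternatives of scaling and cell choice. It fell to 0.15 with TMM factors, 0.17 with DESeq2 size factors and 0.23 as a mean over cells. The 10 cells with the most MT1M UMIs held 33.1% of them in shAPC day 3 and 17.2% in shScr day 3.

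The day 3 ratios depended on the scaling between libraries. Median log2 ratios over all genes with at least 20 CPM in either library were 0.28 at day 3 and -0.10 at day 7. They are called the median of all genes here. With no minimum the medians were 0.14 and 0.01, and with a minimum of 100 CPM 0.12 and -0.14. TMM factors moved all day 3 ratios by -0.38 and DESeq2 size factors by -0.36, against -0.01 and -0.02 at day 7. Under TMM 83 of 150 called genes were higher in shAPC at day 3, against 200 of 222 with totals. With these factors MT1X went to -0.033 and -0.016 at day 3 and MT1G to -0.31 and -0.29. MT1X thus ended near no difference and MT1G changed sign, while MT1F, MT1M, MT1E and MT2A kept their day 3 direction. With totals, MT1G at day 3 was 0.71 without the cell with the most MT1G UMIs in each library. These factors were not combined with that choice of cells. Relative to the median of all genes, MT1F was at 1.39 at day 3 and 2.38 at day 7, MT1X at 0.07 and 0.80, MT1M at 0.25 and 0.51, and MT1G at -0.20 and 1.11.

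**Figure D2:**
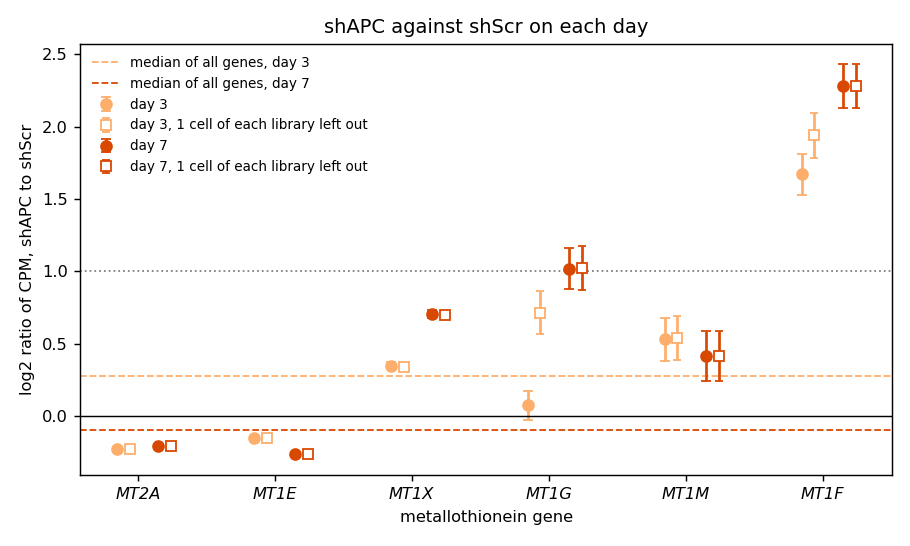
Log2 ratio of CPM, shAPC to shScr, for each member at day 3 and day 7 (filled points, 95% counting intervals) and after leaving out the cell with the most MT1G UMIs in each library (open squares). Dashed lines are the medians of all genes with at least 20 CPM in either library, and the dotted line is 2-fold. MT1G at day 3 moves from 0.07 to 0.71 when the cell is left out, whereas the abundant members hardly move.

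Within the metallothionein UMIs of a library, which no scaling between libraries can change, MT1F made up 0.0267% in shScr day 3, 0.0981% in shAPC day 3, 0.0306% in shScr day 7 and 0.170% in shAPC day 7. MT2A made up 81.6% in shScr day 3, 80.3% in shAPC day 3, 83.4% in shScr day 7 and 82.6% in shAPC day 7. MT1X took 1.39% in shScr day 3, 2.04% in shAPC day 3, 1.38% in shScr day 7 and 2.58% in shAPC day 7. On each day the shAPC library thus held larger shares of MT1F and MT1X and a smaller share of MT2A.

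From day 3 to day 7, MT1F did not move in shScr beyond counting error (log2 ratio -0.01, interval -0.20 to 0.17) and was higher in shAPC by 0.60 (0.50 to 0.69). The first of these rests on 1 cell, without which MT1F was higher at day 7 in shScr too, by 0.29 (0.10 to 0.49). MT1X was lower at day 7 in shScr by a log2 ratio of -0.22 and higher in shAPC by 0.14. MT2A and MT1E were lower at day 7 with either shRNA, by -0.18 and -0.36 in shScr and by -0.16 and -0.47 in shAPC. The direction of MT2A in shAPC depended on the scaling, since it was 0.15 with TMM factors and with DESeq2 size factors, 0.0064 with totals free of mitochondrial and ribosomal protein genes, and 0.18 after subtraction of the all-gene median. MT1E in shAPC stayed below 0 with both sets of factors, at -0.17 and -0.16. On the log2(CPM + 1) scale MT1G in shScr, at -1.08, was the only member called between days, against 1.12% of all genes in shScr and 5.83% in shAPC, and it lost that call without a single cell, as described next. All genes with at least 20 CPM in either library had a median of 0.05 in shScr and -0.34 in shAPC.

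A single cell set much of the MT1G value at day 3. One shScr day 3 cell held 1049 of the 1681 MT1G UMIs of its library (62.4%), together with 107 of 552 MT1F UMIs (19.4%) and 151 of 267 UMIs of MT1H, a neighbouring family gene (56.6%). That cell had 43776 UMIs and 3.55% mitochondrial UMIs, and 57.9% of kept cells in its library were no deeper. In shAPC day 3, 1 cell held 645 of 1554 MT1G UMIs (41.5%) and 230 of 431 MT1H UMIs (53.4%). Their barcodes were in no other library. Among the 1116 cells of its library, the shScr day 3 cell ranked 1st by UMIs of MT1G, MT1F, MT1H and MT1M, 16th by MT1E, 120th by MT2A and 163rd by MT1X. Without the cell with the most MT1G UMIs in each library, a choice made after the values were seen, the day 3 log2 ratio of MT1G was 0.71 (0.57 to 0.86) and that of MT1F 1.94 (1.79 to 2.10). At day 7 these stayed at 1.02 and 2.28. The log2 ratio of MT1G from day 3 to day 7 in shScr, -1.12 with all cells, became 0.15 (-0.01 to 0.32) without them, and MT1F there went from -0.01 to 0.29 (0.10 to 0.49).

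To compare cells at equal depth, each was thinned to 10000 UMIs, which kept 765 cells of shScr day 3, 576 of shAPC day 3, 919 of shScr day 7 and 927 of shAPC day 7 and left out 351, 212, 1681 and 551 shallower cells. MT1F was then found in 9.28% of cells (95% exact binomial interval 7.32 to 11.6) of shScr day 3, 25.9% (22.3 to 29.6) of shAPC day 3, 9.68% (7.85 to 11.8) of shScr day 7 and 33.3% (30.3 to 36.5) of shAPC day 7. Both shAPC shares lay above both shScr shares, beyond the counting intervals. MT1G had a narrower gap, with 11.8% (9.57 to 14.3) of cells of shScr day 3 and 15.3% (12.4 to 18.5) of shAPC day 3. At day 7 it was in 12.0% (9.94 to 14.25) of cells of shScr and 16.5% (14.17 to 19.1) of shAPC. The MT1G intervals overlapped on both days, though only just at day 7. MT1M was in 13.5% (11.1 to 16.1) of cells of shScr day 3 and 14.1% (11.3 to 17.2) of shAPC day 3. At day 7 it was in 10.9% (8.94 to 13.1) of cells of shScr and 13.9% (11.8 to 16.3) of shAPC. The MT1M intervals overlapped on both days. Unthinned, MT1F was seen in 20.1%, 44.8%, 9.65% and 37.8% of cells in the same order of libraries, at median depths of 35109, 49685.5, 1330 and 21029.5 UMIs. No cell type without these genes exists in this single line, so the share that free RNA alone would give could not be measured.

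Cells with several MT1F UMIs were also more frequent in shAPC. At 10000 UMIs, 2 or more were held by 1.57% of cells in shScr day 3, 9.90% in shAPC day 3, 1.96% in shScr day 7 and 16.7% in shAPC day 7. Counts were more unequal than random sampling at an equal level would give, with a variance over mean of 5.20 for MT1F in shScr day 3, 2.65 in shAPC day 3, 1.47 in shScr day 7 and 2.95 in shAPC day 7. MT1G was far more uneven, with 143 in shScr day 3, 20.5 in shAPC day 3, 5.12 in shScr day 7 and 14.5 in shAPC day 7. The day 3 values of shScr rest on 1 cell, with 21 of 108 thinned MT1F UMIs and 226 of 362 thinned MT1G UMIs. Without the highest cell of each library for each gene, MT1F had 1.44 in shScr day 3, 2.34 in shAPC day 3, 1.39 in shScr day 7 and 2.65 in shAPC day 7, so that both shScr values were below both shAPC values. MT1G then had 6.32, 2.96, 2.60 and 8.74 in the same order, with no such split. For unevenly spread counts, variance over mean rises with the mean itself. Mean MT1F counts per cell, all thinned cells included, were 0.141 in shScr day 3 and 0.124 in shScr day 7. They were 0.479 in shAPC day 3 and 0.709 in shAPC day 7. The MT1F split therefore cannot be read apart from the level. In summed libraries, fewer cells of a type and less RNA per cell cannot be told apart. The shares above do not settle this, because at such low counts a share also follows the level and the depth. For MT1F in shAPC day 7 it was 10.1% at 2000 UMIs, 22.6% at 5000 UMIs and 33.3% at 10000 UMIs.

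**Figure D3:**
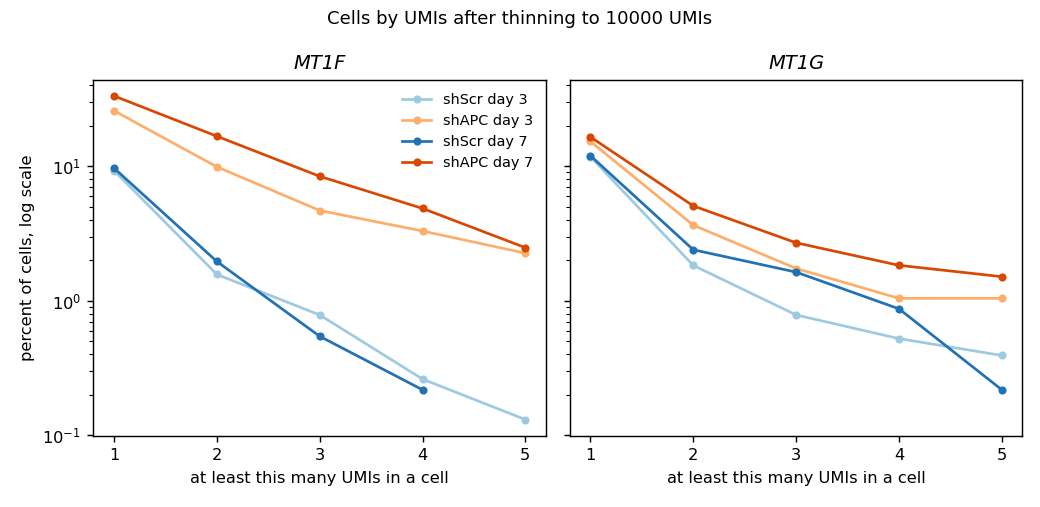
Percent of cells (y axis, log scale) with at least the number of UMIs on the x axis, for MT1F and MT1G, after thinning each cell to 10000 UMIs. For MT1F both shAPC lines stay above both shScr lines (33.3% and 25.9% against 9.68% and 9.28% at 1 UMI), and for MT1G the lines lie closer together at 1 UMI.

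Across cells of one library, MT1E and MT2A counts varied together, with a Spearman rho of 0.69 over 765 cells in shScr day 3 and 0.73 over 576 cells in shAPC day 3. MT1E and MT1X had 0.43 and 0.41 in those libraries. All points share a library and a fixed depth, and the coefficients are descriptions. The scarce members are too sparse for a weak coefficient to be read.

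Depth and mitochondrial share moved with the libraries, so the ratios were recomputed within strata. In cells with at least 10000 UMIs MT1F had a log2 ratio of 1.66 (1.52 to 1.80) on day 3, and on day 7 of 2.28 (2.12 to 2.44). In barcodes removed for 5 to 10% mitochondrial UMIs the day 3 ratio was 2.62 (2.01 to 3.29) and the day 7 ratio 2.63 (2.37 to 2.89). Every stratum gave a higher MT1F level in shAPC, with an interval reaching below 0 only for day 3 cells under 2000 UMIs (-0.82 to 4.23). MT1X at day 7 was higher in shAPC in all kept strata, from 0.51 to 0.77, and lower at -0.14 (-0.26 to -0.01) in barcodes with 10% or more mitochondrial UMIs. MT1M at day 3 was higher in shAPC in kept cells with at least 10000 UMIs, at 0.56 (0.41 to 0.71). In kept cells under 2000 UMIs it was -0.19 (-2.82 to 2.03), and between these depths -0.15 (-1.13 to 0.80). Both of these intervals are too wide to give a direction. MT2A and MT1E were lower in shAPC in every kept stratum on both days. In barcodes removed for 5 to 10% mitochondrial UMIs they were slightly higher at day 3. MT2A was there at 0.04 (0.03 to 0.05) and MT1E at 0.03 (0.01 to 0.06).

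**Figure D4:**
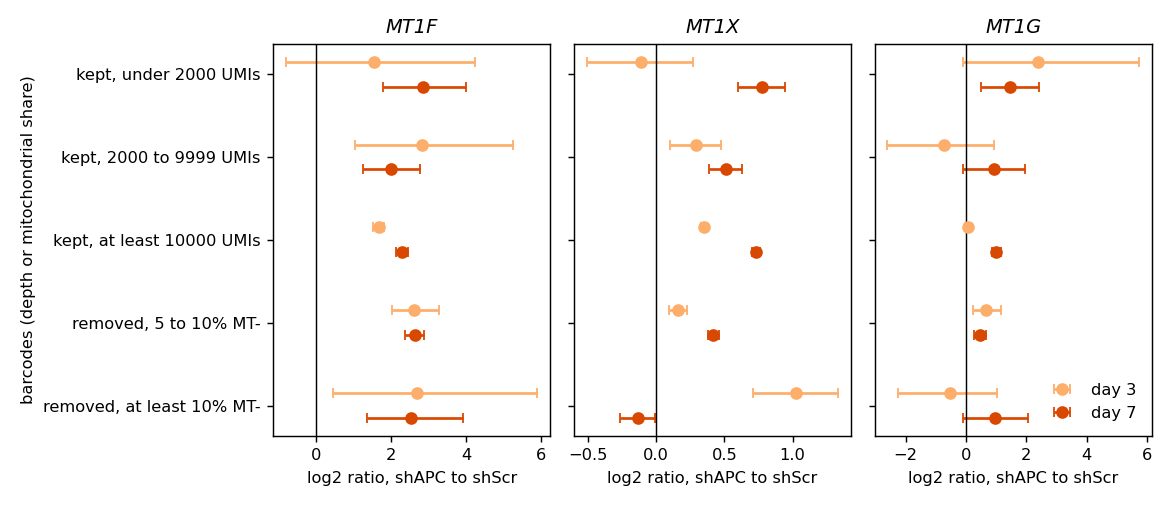
Log2 ratio of CPM, shAPC to shScr (x axis, 95% counting intervals), for MT1F, MT1X and MT1G in kept cells by UMI depth and in barcodes removed for their mitochondrial share (MT-). MT1F is above 0 in every stratum. MT1X at day 7 is below 0 only in barcodes with 10% or more mitochondrial UMIs.

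Of the other family genes MT1A was the only one to reach 20 CPM. It lies next to MT1M and had 46.8 CPM in shScr day 3, 46.2 CPM in shAPC day 3, 26.6 CPM in shScr day 7 and 40.9 CPM in shAPC day 7, with log2 ratios of -0.02 (-0.11 to 0.08) and 0.62 (0.49 to 0.75). MT1H had 6.71, 12.3, 2.95 and 8.12 CPM in the same order and ratios of 0.88 (0.65 to 1.10) and 1.46 (1.11 to 1.83). Without the cells left out above, which held over 50% of its UMIs in each day 3 library, its day 3 ratio was 0.98 (0.65 to 1.32). MT1B, MT1HL1 and MT3, the last known from brain, stayed under 1 CPM in every library. MT4, known from stratified squamous epithelium, had 0 UMIs in all 4, where a floor of 3 counts stands at 0.0754 to 0.105 CPM.

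**Figure D5:**
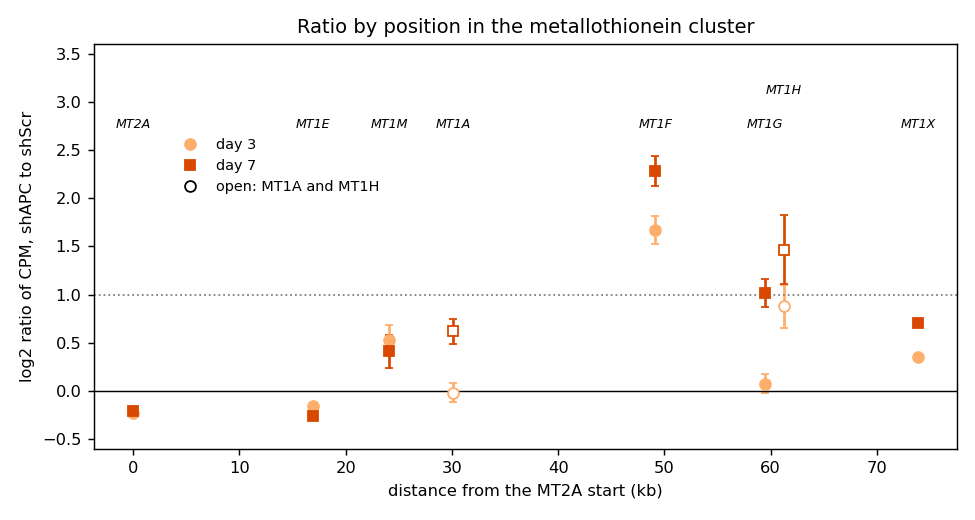
Log2 ratio of CPM, shAPC to shScr (y axis, 95% counting intervals), by distance of the gene start from the MT2A start, for members (filled) and for MT1A and MT1H (open), with 2-fold as a dotted line. MT2A and MT1E at one end are below 0 on both days, MT1F at 49.1 kb is highest, and MT1X at 73.9 kb lies between.

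Genes within 500 kb of the cluster that reached 20 CPM had smaller ratios than MT1F. The genes closest to the cluster on either side stayed under that minimum and have no ratio. Of 21 other genes within 500 kb of the cluster, 6 reached 20 CPM at day 3 and 5 at day 7. Of these, 0 were called on either day, with log2 ratios from 0.21 to 0.65 at day 3 and from -0.09 to 0.34 at day 7. HERPUD1, an endoplasmic reticulum stress gene, was the highest of them. Across the 4 libraries, the pattern closest to that of MT1F, by Euclidean distance of centred log2(CPM + 1) among 5299 genes, was that of CDK6, a cell cycle kinase, at 0.64. FENDRR, RABL6, TP53INP1 and HOXB-AS3 followed, up to 0.85. The genes ranked had at least 20 CPM in a library. FENDRR, TP53INP1 and HOXB-AS3 reached this only in shAPC libraries, as MT1F did, so the minimum itself favours such a pattern. MT1X came 115th, MT1M 261st and MT1G 549th, whereas MT2A came 4385th and MT1E 4640th. All kept cells entered these ranks, among them the 1 cell with 62.4% of the MT1G UMIs of shScr day 3. The ranks were not recomputed without that cell, so the place of MT1G among the members is not settled. Likeness over 4 libraries says little about any 1 gene.

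Genes that handle or respond to metals and stress were counted from fixed lists. Of 25 zinc and copper handling genes, 15 reached 20 CPM at day 3 and 14 at day 7, and 0 were called on either day. Their medians were 0.04 and -0.11, against 0.28 and -0.10 for all genes at that minimum. Of all genes 4.29% were called at day 3 and 2.56% at day 7, so 0 calls in lists this small says little. SLC39A9 fell just short of the minimum at day 7, with 8.61 CPM in shAPC and 19.1 CPM in shScr. Its value there was -1.07 on the log2(CPM + 1) scale. MTF1, the metal sensor, had log2 ratios of 0.44 (0.26 to 0.61) and 0.03 (-0.17 to 0.24). SLC30A1, a zinc exporter known as an MTF1 target, had 0.21 (0.08 to 0.34) and -0.56 (-0.73 to -0.40). Of 11 glucocorticoid response genes, 0 of 7 at 20 CPM were called at day 3. At day 7 CRISPLD2 (1.04 on the log2(CPM + 1) scale) and ERRFI1 (-1.01) of 8 were. The medians of this list were 0.48 at day 3 and -0.11 at day 7. NR3C1, the glucocorticoid receptor, had 0.68 (0.60 to 0.76) and -0.08 (-0.17 to 0.02). The list went both ways, with 4 of 7 genes above the median of all genes at day 3 and 4 of 8 at day 7. FKBP5 had 0.67 and 0.33, and TSC22D3 had -0.67 and -0.36. Of 10 NRF2 and iron genes, HMOX1, which breaks down heme, was the only one called higher, on both days. Its ratios were 1.78 (1.68 to 1.90) and 1.66 (1.51 to 1.83). NQO1, an NRF2 target, had -0.20 and -0.84, and the medians of the NRF2 and iron list were -0.11 and 0.28. Of 6 inducible heat shock genes 3 reached 20 CPM and 0 were called on either day, with medians of 0.30 and -0.06.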

How the data were processed

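Count matrices of 10x Genomics 3′ scRNA-seq were read for 4 libraries. The authors deposited raw UMI counts per gene and barcode, aligned to GRCh38 (hg38) and counted with Cell Ranger (3.0.2 or 3.0.0 per the file headers, STAR named in the submitters' processing notes). The annotation release and cell calling settings are not given in the sources used here, and the kit is v2 in the labels and V3 in the methods. The TMM scaling with ComBat, imputation and clustering of the study were not applied.

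A barcode counted as a cell if it held 200 or more genes and 500 or more UMIs, with less than 5% of the latter from 13 mitochondrial genes. UMIs were summed per library and scaled by the kept total to CPM. Doublets were not removed and no caller was run. CPM have exact Poisson intervals, ratios exact conditional binomial intervals and shares exact Clopper-Pearson intervals, all at 95% and for counting error only. Calls were a fold of 2 on log2(CPM + 1) over genes with at least 20 CPM in either library. For a count of 0 the floor is 3 counts. The interval and the call were tested only on Poisson counts simulated per library, the model that the intervals assume. That test had no spread between cells, so it says nothing about uneven counts such as those of MT1G.

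Members and gene lists were chosen with earlier results of these data known. Named genes were the members, list genes with at least 4 UMIs in a library, called genes within 500 kb of the cluster, and the 5 genes nearest to MT1F over the libraries. HERPUD1 was named after its value was seen, and so were CDH1, CDX2, MUC2 and MT4, list genes under 4 UMIs. The lists covered other family genes, zinc and copper handling, glucocorticoid response, NRF2 and iron, heat shock, and markers of epithelial, intestinal, mesenchymal, blood and endothelial cells. Sequences came from RefSeq (GRCh38.p14) and positions from GENCODE 44, matched by gene ID. Python 3.11.15, scipy 1.17.1, edgeR 4.0.16 (TMM factors) and DESeq2 1.42.0 (size factors) were used.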

Additional observations from a re-analysis of the deposited data

Results flagged for a closer look

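MT1X moved in opposite directions from day 3 to day 7 with the 2 shRNAs. Its log2 ratio of day 7 to day 3 was -0.22 (-0.25 to -0.19) in shScr and 0.14 (0.11 to 0.16) in shAPC, and neither counting interval reached 0. With 1 library per group the difference was not tested, and the spread between cultures is unknown. The directions were the same under each of the 9 alternatives of scaling and cell choice that were computed, with values from -0.28 to -0.06 in shScr and from 0.04 to 0.44 in shAPC.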

How the results depend on the processing

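The summed metallothionein log2 ratio stayed below 0 under all 9 alternatives on both days. At day 3 it was -0.20, and it went to -0.58 with TMM factors, -0.57 with DESeq2 size factors, -0.31 with totals free of mitochondrial and ribosomal protein genes, -0.18 over all deposited barcodes, -0.19 with a mitochondrial limit of 10%, -0.11 without the 5% of cells with the most UMIs and -0.21 as a mean over cells. In the same order it went at day 7 to -0.21, -0.22, -0.14, -0.32, -0.32, -0.25 and -0.11, and to -0.21 over cells of at least 2000 genes. MT1F kept its direction in all, from 1.29 to 1.94 at day 3 and from 2.26 to 2.45 at day 7. MT1X at day 3 went to just below 0, at -0.033 (TMM) and -0.016 (DESeq2), and MT1G at day 3 ranged from -0.31 to 0.71. With a minimum of 100 CPM, 0 members were called on either day, since MT1F is below it, and a pseudocount of 5 CPM, no minimum and both scalings left 1, MT1F. Genes called at day 3 numbered 222, and 157 with 5 CPM, 42 with 100 CPM, 528 with no minimum, 150 with TMM and 144 with DESeq2. At day 7 they numbered 117, and 78, 34, 299, 126 and 127. The share of cells with MT1F at 2000 UMIs was 2.11% in shScr day 3, 8.77% in shAPC day 3, 2.59% in shScr day 7 and 10.1% in shAPC day 7. At 5000 UMIs it was 4.45%, 15.1%, 6.18% and 22.6%, and without thinning 20.1%, 44.8%, 9.65% and 37.8%. The share of MT2A among member UMIs moved beyond counting error only over all deposited barcodes, to 80.5% in shAPC day 3, 83.3% in shScr day 7 and 82.4% in shAPC day 7. Without the cell with the most UMIs of the gene, chosen after the values were seen, the variance over mean in the same order of libraries was 1.44, 2.34, 1.39 and 2.65 for MT1F, and 6.32, 2.96, 2.60 and 8.74 for MT1G. The libraries were set side by side within each day, and a fit with shRNA and day as additive terms was not run. Each group holds 1 library, which limits every ratio here to the libraries compared.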

Other observations

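Cells with a UMI of HMOX1 and cells without one were compared within each library after thinning to 10000 UMIs. Mean MT2A counts were lower in cells with HMOX1 in all 4 libraries, at 407 against 444 UMIs in shScr day 3, 329 against 403 in shAPC day 3, 357 against 396 in shScr day 7 and 256 against 342 in shAPC day 7. MT1F was found in 40.1% (33.4 to 47.0) of the 212 shAPC day 7 cells with HMOX1 and in 31.3% (27.9 to 34.9) of the 715 without. In shAPC day 3 the shares were 29.0% (22.5 to 36.1) of 183 cells and 24.4% (20.3 to 29.0) of 393 cells. In shScr day 3 they were 10.3% (5.61 to 17.0) of 126 cells and 9.08% (6.96 to 11.6) of 639 cells, and in shScr day 7 they went the other way, with 5.62% (1.85 to 12.6) of 89 cells and 10.1% (8.15 to 12.4) of 830 cells. The intervals overlapped in all 4 libraries. Cells of 1 library are not replicates, and no test was run.

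The transcribed pseudogene MT1IP, listed in the files under its clone name and matched by gene ID, had 10 UMIs in shScr day 3, 3 in shAPC day 3, 5 in shScr day 7 and 6 in shAPC day 7.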
